A study of Mus musculus with 6 samples.

Results

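Insulin-like growth factors (IGFs) are small secreted proteins related to insulin, and the genes described here encode both ligands, their receptors and their binding proteins. The 10 genes were chosen by symbol from the 55421 genes of the deposited table: the ligands *Igf1* and *Igf2*, the receptors *Igf1r* and *Igf2r*, and the binding proteins *Igfbp2*, *Igfbp3*, *Igfbp4*, *Igfbp5*, *Igfbp6* and *Igfbp7*. Each symbol matched 1 row, and 10 of 10 passed the filter on low counts that left 17069 genes. The symbols carry no threshold on expression, but they were proposed with the contrast of substance P (SP) against vehicle in these data already known, so the fold changes and FDRs below are a description of the members and are not support for a change in the family.

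The study asked what peripheral SP does to the hippocampus. Hippocampal RNA came from wild-type male C57BL/6N mice aged 8 to 10 weeks. In the SP group, 3 mice received 100 µL of 10 µM SP under the skin on 14 consecutive days, and in the vehicle group 3 mice received the same volume of saline. Each mouse gave 1 library, and the labels give each group the batch numbers 1 to 3.

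Igf1r is a receptor tyrosine kinase that both ligands activate, which leads to signaling through the Irs proteins, PI3K and Akt. Igf2r, the cation-independent mannose 6-phosphate receptor, takes up Igf2 and delivers it to lysosomes, and the binding proteins hold the ligands in the extracellular space. In the adult brain *Igf2* is known as a product of the choroid plexus, which makes cerebrospinal fluid, and of the leptomeninges, the thin membranes that cover the brain. *Igf1* is known from some interneurons and from microglia.

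Both source tissues of *Igf2* adjoin the hippocampus, and 2 libraries stood apart in their markers. Library SP 1 had 124.7 CPM of *Ttr*, the transthyretin gene and the most abundant choroid plexus transcript of the list, where the vehicle libraries had 3492, 3476 and 4300 CPM. Here CPM is the usual count scaled by the normalized library size (TMM), which lets 1 gene be compared between libraries. Library SP 2 had 24.86 CPM of *Dcn*, a matrix gene of leptomeningeal fibroblasts, where the other 5 libraries had 70.31 to 86.59 CPM. *Dcn* was the most extreme gene of its list in SP 2. Of 16 listed leptomeningeal genes 11 were lowest in SP 2, but *Lum* was highest there at 9.67 CPM. *Col1a2* had 21.96 CPM in SP 2, beside 22.43 to 22.79 CPM in vehicle. All 17 listed markers of dentate granule cells, CA1 and CA2 and CA3 pyramidal cells were tested and none was at 0 in any library. Only 89 of the 17069 tested genes had a 0 in any library, so this does not show how much of these neurons each library held. Total counts ranged from 22349964 to 27605935 per library. In bulk tissue, fewer cells of a type and less RNA per cell cannot be told apart.

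The promoters of *Igf2* and *Igfbp2* are shown because these genes had the lowest fitted values of the 10 members. Each window holds the 150 bases before a transcription start of RefSeq on GRCm38.p6, written 5′ to 3′ on the strand of the gene. *Igf2* has 4 RefSeq starts, and the pair shown coincides with GENCODE starts. Capitals mark the GC box GGGCGG on either strand, and these matches do not overlap.
Igf2, minus strand, chr7:142666817-142666966: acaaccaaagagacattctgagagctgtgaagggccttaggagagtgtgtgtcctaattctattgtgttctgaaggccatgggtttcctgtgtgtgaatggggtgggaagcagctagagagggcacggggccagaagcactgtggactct
Igf2, minus strand, chr7:142657497-142657646: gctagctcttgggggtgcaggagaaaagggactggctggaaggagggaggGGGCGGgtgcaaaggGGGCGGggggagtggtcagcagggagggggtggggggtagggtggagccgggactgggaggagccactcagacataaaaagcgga
Igfbp2, plus strand, chr1:72824330-72824479: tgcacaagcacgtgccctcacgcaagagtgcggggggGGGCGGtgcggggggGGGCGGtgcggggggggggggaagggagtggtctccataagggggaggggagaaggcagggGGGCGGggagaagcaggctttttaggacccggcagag

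The first *Igf2* window had 52% G and C and held no GC box. The other *Igf2* window, which belongs to the start nearer the coding exons, had 66.7% G and C and 2 GC boxes. The *Igfbp2* window shown had 72% G and C and 3 GC boxes, and its start was 23 bases from the nearest GENCODE start. A further RefSeq start of *Igfbp2*, whose window is not shown, had 54% G and C and 0 GC boxes. The median over all windows was 54%. A GC box was found in 28.6% of 32851 promoter windows and in 6 of the 14 windows of the members. The TATA box TATAAA and the CCAAT box CCAAT, searched on both strands, were in 7.57% and 24.5% of all windows and in none of the 3 windows shown. The counts are summed per gene, so they do not show which start was used.

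Levels between genes were compared per length, as CPM per kilobase of merged exons. In the vehicle libraries *Igfbp2* was highest with 56.9 ± 4.98 CPM per kb (SD, n = 3 mice). *Igfbp5* with 38.1 ± 0.684 and *Igf2* with 37.4 ± 7.07 CPM per kb followed, and these neighbours did not differ beyond their spread. *Igfbp7* had 15.3 ± 0.702 and *Igfbp4* 13.6 ± 0.613 CPM per kb.

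A lower tier was formed by *Igfbp3* with 6.76 ± 0.285, *Igfbp6* with 6.50 ± 0.696 and *Igf2r* with 6.11 ± 0.277 CPM per kb, whose ranges over the 6 libraries overlapped. *Igf1r* had 4.25 ± 0.267 CPM per kb, and its range of 3.83 to 4.95 over the libraries overlapped those of *Igfbp3* and *Igfbp6*. Its place depends on the length used. Per kilobase of the longest transcript *Igf1r* had 6.252 in vehicle, beside 6.395 for *Igf2r*. *Igf1* was lowest with 0.829 ± 0.0431 CPM per kb, and its highest library, at 0.857, was below the lowest library of each other member. In the SP libraries *Igf2* had 23.7 ± 8.44 and *Igfbp2* 34.1 ± 18.1 CPM per kb, the largest SDs on this scale, and *Igfbp5* had 37.5 ± 6.22 CPM per kb.

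**Figure D1:**
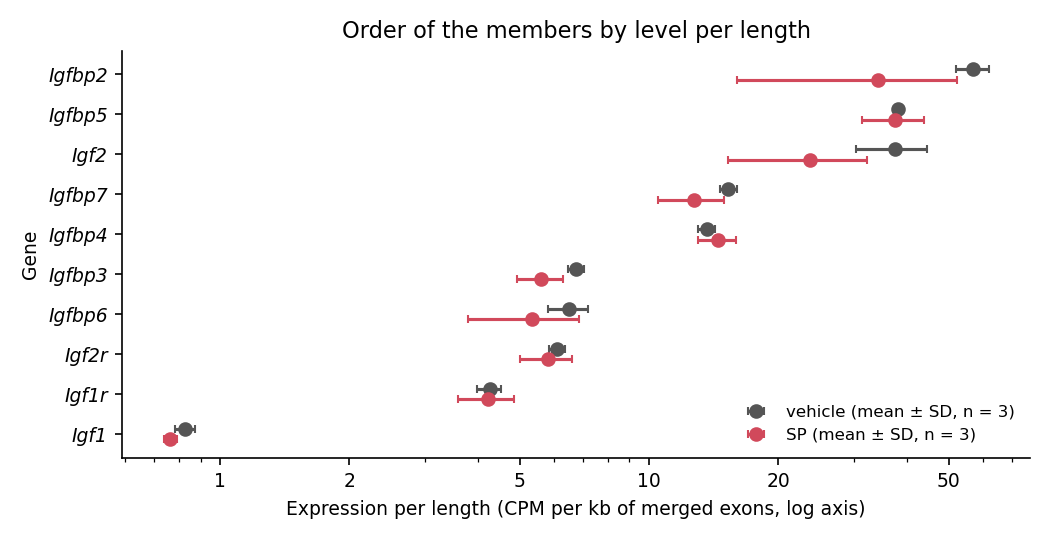
Level of the 10 genes per length, in CPM per kilobase of merged exons on a log axis, as mean ± SD over 3 mice for vehicle (grey) and SP (red). *Igfbp2*, *Igfbp5* and *Igf2* lie highest and *Igf1* lies lowest, at 0.829 CPM per kb in vehicle.

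Of the 10 members, 0 passed FDR < 0.1 and |log2FC| > 0.3 in edgeR's quasi-likelihood test with the batch number as a block, where 0.0293% of all tested genes did and 0.0117% did with a lower level in SP. An unadjusted p under 0.05 was found for 4 members, *Igf2*, *Igfbp2*, *Igfbp3* and *Igfbp7*, each with a lower level in SP, beside 5.59% of all genes that had such a p and were lower. With DESeq2 and the block 1 member, *Igf2*, passed, while DESeq2 without the block and limma-voom called 0. The fitted log2 fold change was below 0 for 9 of the 10 members and for 49.5% of all genes. That count includes *Igf1r*, *Igf2r* and *Igfbp5*, whose values of -0.02, -0.08 and -0.03 were near 0. Without batch number 1, 2 or 3 it was 7, 10 and 7 of the members. The median of the members was -0.19, against 0.0015 over all genes.

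**Figure D2:**
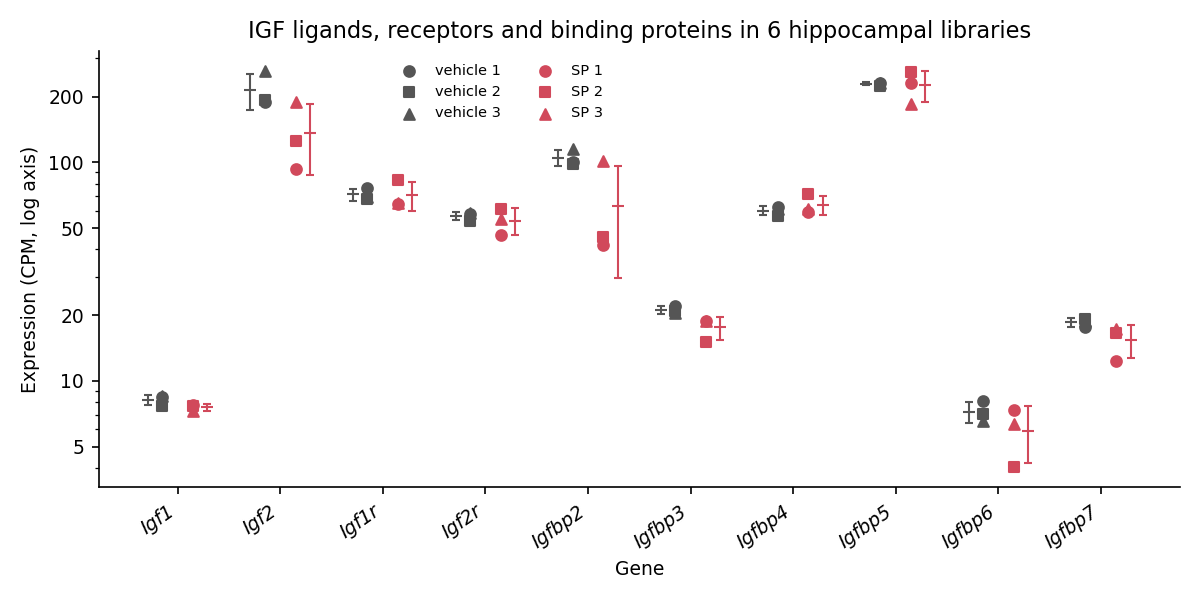
Expression of each gene in each library, in CPM on a log axis. Symbols mark the 3 vehicle (grey) and 3 SP (red) mice by batch number, and the bars beside them give mean ± SD. *Igf2* and *Igfbp2* have the widest spread among SP mice, and *Igf1* lies between 7.27 and 8.49 CPM in all 6 libraries.

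*Igf2* (ENSMUSG00000048583) lies on chromosome 7 of GRCm38 from 142650766 to 142666816, on the minus strand, and encodes the ligand IGF-II. Its expression was 189.5, 192.3 and 260.9 CPM in the vehicle libraries and 93.36, 125.4 and 188.3 CPM in SP 1, SP 2 and SP 3. Library SP 1 was lowest, vehicle 3 was highest, and the groups did not overlap, although SP 3 was only just below vehicle 1. A lower, non-overlapping SP group was found in 9.03% of all genes.

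The mean of *Igf2* was 214 ± 40.4 CPM in vehicle and 136 ± 48.3 CPM in SP (SD, n = 3 mice each), so that SP was at 63.3% of vehicle. The SP mouse had 49.3%, 65.2% and 72.2% of the vehicle mouse of the same batch number. On the log2 scale the fit put SP at -0.70 relative to vehicle, with a standard error of 0.0985 and an FDR of 0.231 by edgeR. Standard errors here are the absolute log2 fold change over the square root of edgeR's F statistic, which shares variance across genes. They do not measure the spread between the mice of a group for 1 gene. With DESeq2 and the block *Igf2* had an FDR of 1.70e-08 at a log2 fold change of -0.70, and without the block its FDR by DESeq2 was 0.525. Over the alternatives that were run, the FDR ranged from 1.49e-05 to 0.706 outside that fit. Without batch number 1 the log2 fold change was -0.54, without batch number 2 it was -0.74, and without library SP 1 in the fit without the block it was -0.45.

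*Gm49394* (ENSMUSG00000115302) shares 3596 of the 5723 exonic bases of *Igf2*, and reads could be divided between them. It had at most 10 counts in a library, and summed with *Igf2* it gave 4409, 4768 and 7192 counts in vehicle and 2191, 3023 and 4195 in SP, close to the counts of *Igf2* alone. The antisense gene *Igf2os* had 17 to 33 counts and *H19*, an imprinted noncoding RNA of the same locus, 6 to 38 counts. The highest *H19* count was in SP 2, and its fitted log2 fold change was 0.88 (SE 0.507). *Ins2*, the insulin gene beside *Igf2*, had 0 to 12 counts.

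*Igf1* (ENSMUSG00000020053), on chromosome 10 from 87858265 to 87937042, encodes IGF-I. Its expression was 8.42, 7.72 and 8.49 CPM in vehicle and 7.80, 7.68 and 7.27 CPM in SP. The groups overlapped, and the highest library was 1.17 times the lowest. The fitted log2 fold change was -0.11 (SE 0.105, edgeR FDR 0.760). The lists of its known source cells had summed levels of 344 to 360 CPM in vehicle and 335 to 355 CPM in SP for 10 microglial genes, and of 877 to 962 and 757 to 946 CPM for 10 genes of GABAergic interneurons.

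Both receptor genes had overlapping groups. *Igf1r* (ENSMUSG00000005533, chromosome 7 from 67952827 to 68233668) had 76.5, 68.1 and 69.5 CPM in vehicle and 64.3, 83.1 and 64.9 CPM in SP. Its highest library was SP 2 and its lowest SP 1, and the fitted difference was -0.02 on the log2 scale (SE, the standard error, 0.0985). *Igf2r* (ENSMUSG00000023830, chromosome 17 from 12682406 to 12769664) had 58.1, 53.9 and 58.6 CPM in vehicle and 46.3, 61.2 and 54.9 CPM in SP. It had the same highest and lowest libraries as *Igf1r*, and a log2 fold change of -0.08 (SE 0.0945). Its antisense transcript *Airn* shared 0 exonic bases with it and had 15 to 40 counts. Without batch number 1 the log2 fold changes of *Igf1r* and *Igf2r* were 0.096 and 0.045, above 0, and that of *Igf1r* was also above 0 without batch number 3 (0.019), so no direction is given for either gene.

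*Igfbp2* (ENSMUSG00000039323), on chromosome 1 from 72824503 to 72852474, encodes a binding protein that is abundant in choroid plexus and is also made by astrocytes. Its expression was 100.8, 98.7 and 115.6 CPM in vehicle and 41.9, 45.5 and 101.5 CPM in SP. Libraries SP 1 and SP 2 were far below the other 4, while SP 3 lay within the vehicle range, so the groups overlapped. SP mice had 41.6%, 46.1% and 87.8% of the vehicle mouse of the same batch number. The fitted log2 fold change was -0.85 (SE 0.187, edgeR FDR 0.315), and over the alternatives the FDR ranged from 0.000484 to 0.747. Without batch number 3 the log2 fold change was -1.19 with an FDR of 0.00729, without batch number 2 it was -0.70, and without batch number 1 it was -0.64. *Igfbp5* lies on the opposite strand of the same chromosome, with 5457 bases between the 3′ ends of both genes, and its highest library was SP 2, where *Igfbp2* was low.

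*Igfbp3* and *Igfbp7* were the other members with an unadjusted p under 0.05. *Igfbp3* (ENSMUSG00000020427), the main carrier of IGFs in serum, had 22.1, 20.9 and 20.4 CPM in vehicle and 18.8, 15.1 and 18.7 CPM in SP. Its groups did not overlap and SP 2 was lowest. The log2 fold change was -0.27 (SE 0.0892, edgeR FDR 0.416). *Igfbp7* (ENSMUSG00000036256), a low-affinity binding protein known from blood vessels, had 17.6, 19.2 and 18.7 CPM in vehicle and 12.3, 16.5 and 17.3 CPM in SP. Its groups did not overlap either, with SP 1 lowest and SP 3 just below vehicle 1.

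The log2 fold change of *Igfbp7* was -0.28 (SE 0.0970, edgeR FDR 0.430), and without batch number 1 it was -0.17. For *Igfbp3* it was -0.18 without batch number 2. In the vascular lists, 10 endothelial genes summed to 228 to 244 CPM in vehicle and 227 to 232 CPM in SP, and 10 mural cell genes to 222 to 235 and 220 to 247 CPM.

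*Igfbp6* (ENSMUSG00000023046), whose protein prefers IGF-II over IGF-I, had 8.08, 7.03 and 6.57 CPM in vehicle and 7.37, 4.03 and 6.38 CPM in SP. Its groups overlapped and SP 2 was lowest. The log2 fold change was -0.31 (SE 0.165, edgeR FDR 0.567), and without batch number 2 it was -0.09. *Igfbp3* and *Igfbp6* therefore shared their lowest library with *Dcn*, and *Igf2*, *Igfbp2*, *Igfbp7* and both receptor genes shared theirs with *Ttr*. For *Igf1r* this was a near tie, with 64.34 CPM in SP 1 and 64.93 CPM in SP 3. The means of the GABAergic interneuron, CA1, and neocortical and subicular lists were also lowest in SP 2, so that library is not particular to *Dcn*.

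*Igfbp4* and *Igfbp5* had overlapping groups and fitted values near 0. *Igfbp4* (ENSMUSG00000017493), whose protein is cleaved by the protease Pappa, had 62.2, 57.1 and 61.3 CPM in vehicle and 59.3, 71.4 and 61.1 CPM in SP. It was the 1 member with a positive fitted value, 0.08 (SE 0.0827), which was -0.04 without batch number 2. *Igfbp5* (ENSMUSG00000026185), which also binds extracellular matrix, had 231.6, 224.0 and 230.5 CPM in vehicle and 231.4, 259.4 and 185.4 CPM in SP.

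The vehicle libraries agreed closely for *Igfbp5*, with a coefficient of variation of 1.79%, while SP 2 lay above and SP 3 below all of them, giving 16.6% in SP. Its log2 fold change was -0.03 (SE 0.0928). The mean of the 6 dentate granule cell markers, though not each marker, had the same highest and lowest libraries, with 148% of the vehicle geometric mean in SP 2 and 91.3% in SP 3. *C1ql2* and *Trpc6* were highest in SP 1, and *C1ql2* and *Tdo2* were lowest in a vehicle library. *Lct*, a dentate gene of that list, had 72.8 CPM in SP 2 and 35.4 CPM in SP 3, beside 36.9 to 39.0 CPM in vehicle. Whether this has a part in the values of *Igfbp5* was not tested.

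**Figure D3:**
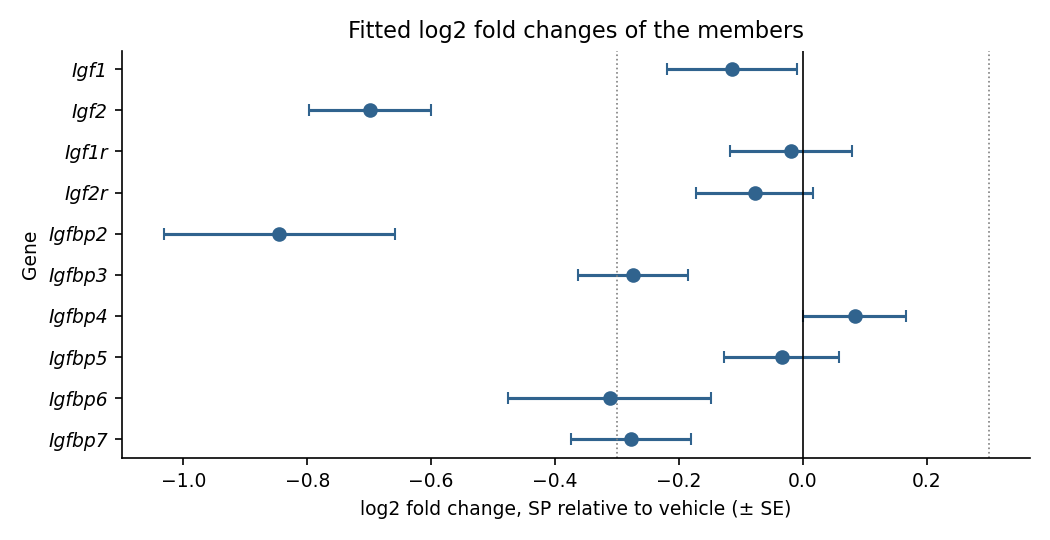
Fitted log2 fold change of SP relative to vehicle for each gene, from edgeR with the batch number as a block. Bars give 1 standard error derived from edgeR's F statistic, which is not the spread between mice. Dotted lines mark the minimum of 0.3 in either direction. *Igfbp2* at -0.85 and *Igf2* at -0.70 lie lowest. Of the 10 values, 9 are below 0, but those of *Igf1r*, *Igf2r* and *Igfbp5* lie within 1 standard error of 0.

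*Igf2* was set beside lists of 15 choroid plexus and 16 leptomeningeal marker genes, neither of which contains an IGF gene. The relation was in view when *Igf2* was chosen, so the values are a description. All 15 choroid plexus genes had their lowest level in library SP 1, between 2.5% of the vehicle mean for *Tmem72* and 30.1% for *Calml4*, with *Ttr* at 3.32%. The summed level of the list was 4076 to 5129 CPM in vehicle and 194.9, 3010 and 4231 CPM in SP 1, SP 2 and SP 3. Most of each sum was *Ttr*, with 3476 to 4300 CPM in vehicle and 124.7, 2542 and 3614 CPM in SP. None of the markers was at 0 in any library. *Folr1*, which carries folate into the cerebrospinal fluid, had 1.58 CPM in SP 1, 17.9 in SP 2 and 30.6 in SP 3, beside 25.9 to 33.6 CPM in vehicle.

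In the leptomeningeal list 11 of 16 genes were lowest in SP 2, 4 in SP 3 and 1 in SP 1. *Dcn* in SP 2 was at 31.2% of the vehicle mean, the lowest of the list, and *Lum*, another small proteoglycan, was at 128%. *Fmod* had 19.8, 22.8 and 21.6 CPM in vehicle and 18.3, 8.38 and 17.4 CPM in SP. The collagen gene *Col1a2* varied less, from 19.2 to 22.8 CPM over all libraries. The summed list had 257 to 268 CPM in vehicle and 256, 158 and 223 CPM in SP 1, SP 2 and SP 3. *Dcn* alone had 75.6 to 86.6 CPM of it in vehicle and 80.3, 24.9 and 70.3 CPM in SP.

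As percent of the vehicle geometric mean, taken over the log2 CPM of the genes, library SP 1 had 7.2% of the choroid plexus list, 100.1% of the leptomeningeal list, 44.1% of *Igf2* and 40.0% of *Igfbp2*. In SP 1 *Igf2* was thus at 93.36 CPM beside a choroid plexus list that was lower than in any other library. Library SP 2 had 66.5% of the choroid plexus list and 67.6% of the leptomeningeal list, with 59.2% of *Igf2* and 43.4% of *Igfbp2*. Library SP 3 had 88.0%, 82.6%, 88.9% and 96.9% in the same order. In vehicle 3, where *Igf2* was highest at 123%, the choroid plexus list was also highest at 116%, and the leptomeningeal list was at 102%.

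**Figure D4:**
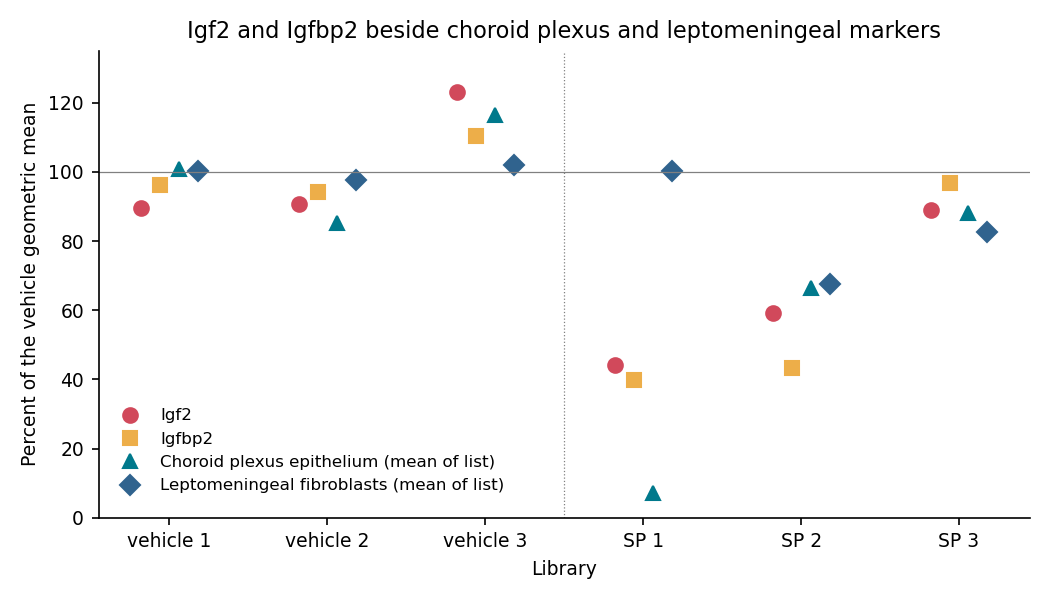
Level in each library as percent of the vehicle geometric mean for *Igf2*, *Igfbp2* and the means of the choroid plexus and leptomeningeal lists. In SP 1 the choroid plexus list is at 7.2% while *Igf2* is at 44.1% and the leptomeningeal list at 100.1%, and in SP 2 all 4 are below 70%.

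The ratio of *Igf2* to the choroid plexus list, scaled to the vehicle mean, was between 0.888 and 1.06 in the other 5 libraries and 6.12 in SP 1. Its ratio to the leptomeningeal list was 0.893, 0.929 and 1.21 in vehicle and 0.440, 0.875 and 1.08 in SP 1, SP 2 and SP 3. *Igfbp2* had ratios of 0.949 to 1.10 to the choroid plexus list in vehicle and 5.55, 0.653 and 1.10 in SP. In SP 2, therefore, *Igfbp2* was lower than both lists, while *Igf2* stood at 0.891 and 0.875 of them. Both ratios of *Igf2* were furthest from 1 in SP 1, and what this says of its sources was not tested. The astrocyte list, another known site of *Igfbp2*, ranged from 96.7% to 102.6% over all libraries.

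The 15 choroid plexus genes had a median log2 fold change of -1.14, from -1.58 for *Ttr* to -0.58 for *Calml4*, and 0 were called by edgeR, with an unadjusted p under 0.05 for 6. The median was -0.35 without batch number 1, -1.73 without batch number 2 and -1.90 without batch number 3. The 16 leptomeningeal genes had a median of -0.28, from -0.60 for *Fmod* to 0.29 for *Slc47a1*, with 0 called and 6 at an unadjusted p under 0.05. Without batch number 2 it was -0.15. The markers did not follow the SP label in every library. The choroid plexus list in SP 3, at 88.0%, lay within its vehicle range of 85.3% to 116%. The leptomeningeal list in SP 1, at 100.1%, lay within its vehicle range of 97.7% to 102%. The part of both lists in the values of *Igf2* and *Igfbp2* was not tested. Tissue content and an effect of SP on these genes cannot be told apart.

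Beyond the members, 45 other genes of the IGF pathway were listed in 3 groups and 41 were tested, of which edgeR called 0. Of 12 extracellular modulators and related receptors, 10 were tested, with 5 fitted values on each side of 0 and a median of 0.013. *Htra1*, a secreted protease that can cleave IGF-binding proteins, was the 1 gene of the group with an unadjusted p under 0.05. It had 98.0, 97.8 and 102.0 CPM in vehicle and 111.4, 113.5 and 106.0 CPM in SP, which the fit put at 0.15 on the log2 scale (SE 0.0553, edgeR FDR 0.437). The groups of *Htra1* did not overlap, which in either direction held for 18.2% of all genes. An unadjusted p under 0.05 was found for 10.1% of all genes.

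*Pappa2*, a protease related to Pappa, had the lowest fitted value of the group at -0.74 (SE 0.367) with overlapping values of 0.808 to 2.88 CPM in vehicle and 0.938 to 1.21 CPM in SP. *Igfbpl1* had the highest, 0.29 (SE 0.226). *Igfbp1* and *Igfals*, the genes of a liver-derived binding protein and of the acid-labile subunit of the serum complex, were too low to test, with at most 3 and 4 counts in a library. The insulin receptor gene *Insr* had a log2 fold change of -0.12 (SE 0.0753).

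Of 27 genes of intracellular signaling, 27 were tested, 18 with fitted values above 0 and 9 below, with a median of 0.031. The lowest and highest values were -0.47 for *Irs4*, which had 2 counts in SP 2 and 19 to 45 in the other libraries, and 0.16 for *Irs1*. *Grb10*, an imprinted adaptor that restrains insulin and IGF receptors, had 38.9, 48.6 and 43.9 CPM in vehicle and 35.1, 28.7 and 44.0 CPM in SP, a log2 fold change of -0.30 (SE 0.135, edgeR FDR 0.509). *Map2k1*, a kinase of the ERK cascade, had 254 to 277 CPM in vehicle and 284 to 290 CPM in SP. None of the 27 had an unadjusted p under 0.05, where 10.1% of all genes did, and *Akt1* and *Mtor* had log2 fold changes of 0.05 and 0.03.

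Among 6 genes of the *Igf2* locus and of *Igf2* mRNA regulation, 4 were tested. Their values ran from -0.77 for *Ins2* to 0.88 for *H19*. *Igf2bp2*, which encodes a protein that binds *Igf2* mRNA, had 0.559, 0.485 and 0.435 CPM in vehicle and 0.724, 0.872 and 0.808 CPM in SP, or 12 to 21 counts. Its groups did not overlap, as in 18.2% of all genes in either direction, and its FDR was 0.511 by edgeR.

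**Figure D5:**
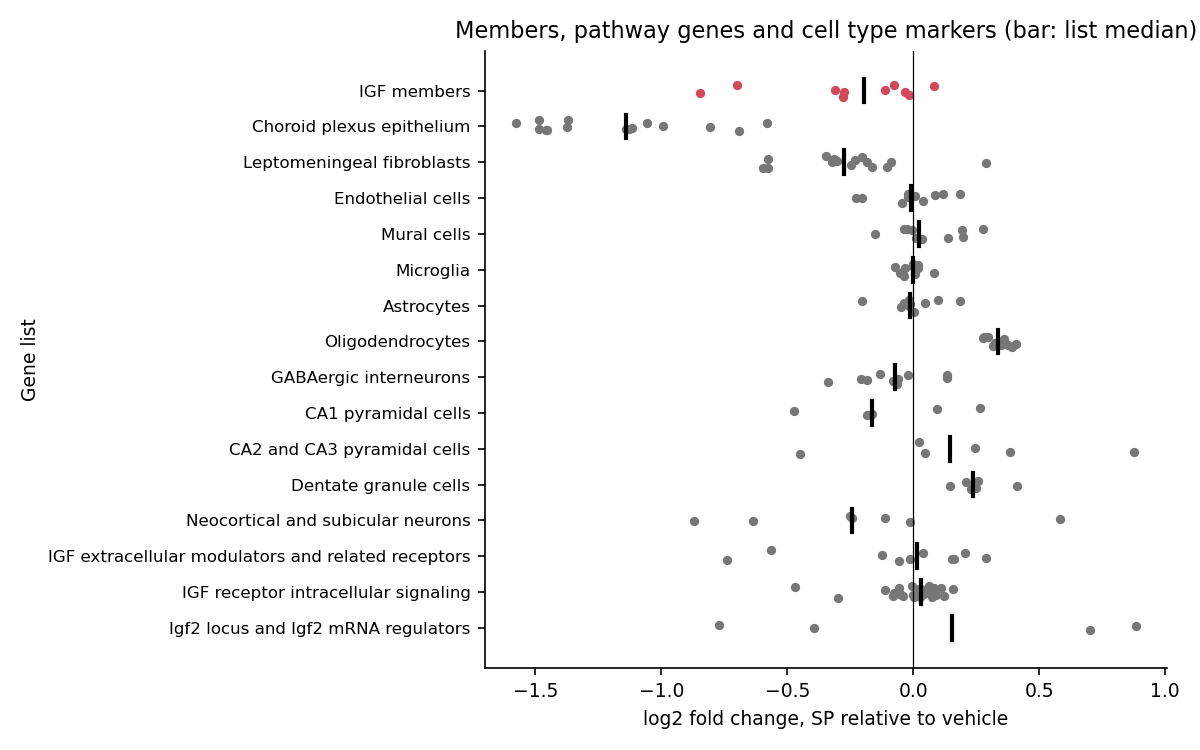
Fitted log2 fold change of SP relative to vehicle for the 10 members (red) and for the tested genes of each list (grey), with the median of each list as a black bar. The choroid plexus list lies lowest with a median of -1.14, and the 27 signaling genes centre on 0.031.

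The other marker lists give the levels beside which the members stand. The 10 oligodendrocyte genes had a median log2 fold change of 0.34, from 0.28 for *Mog* to 0.41 for *Aspa*, and summed levels of 2228 to 2550 CPM in vehicle and 2581 to 3712 CPM in SP. The 7 neocortical and subicular genes had a median of -0.24, from -0.87 for *Tshz2* to 0.58 for *Rspo1*. Both lists deviated most in SP 2, with 152% and 76.8% of the vehicle geometric mean. *Igfbp3* and *Igfbp6* were also lowest in SP 2, at 71.5% and 55.9%, and the part of tissue composition in these values was not tested.

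The resemblance between members was described by Pearson's r of log2 CPM over the 6 libraries. *Igf2* and *Igfbp2* had an r of 0.953, *Igfbp3* and *Igfbp6* 0.924 and *Igf2* and *Igfbp7* 0.889. *Igf1r* had 0.835 with *Igfbp4* and 0.765 with *Igf2r*. The lowest values were -0.849 for *Igfbp4* with *Igfbp6* and -0.784 for *Igfbp4* with *Igfbp3*. These members share libraries and, with them, tissue content.

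Outside the family, the genes most like *Igf2* among 14886 candidates with at least 1 CPM were *Egfr* (r of 0.995), *Gm14327*, *Itprid2*, *Rnaset2b* and *Glb1*. *Egfr*, the epidermal growth factor receptor gene, had 17.5, 17.9 and 19.6 CPM in vehicle and 14.5, 15.5 and 17.5 CPM in SP, a smaller range than that of *Igf2*. For *Igfbp2* the closest was *Cgn*, which encodes the tight junction protein cingulin, with 10.95 to 12.05 CPM in vehicle and 6.69, 6.77 and 10.9 CPM in SP (r of 0.996). Those closest to *Igfbp3* were *Hsd17b12*, *Necab1* and *Zdhhc22*. *Necab1* had 100.0, 94.4 and 87.2 CPM in vehicle and 69.9, 42.8 and 74.9 CPM in SP. With so many candidates and 6 libraries, the best r of each of the 10 members was between 0.989 and 0.997.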

How the data were processed

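The deposited table holds estimated counts per gene for 6 libraries. Per the methods of the study, the authors used TrimGalore for trimming, STAR for alignment to GRCm38 and Salmon for quantification, and the expected counts carry no correction for depth or length. Tool versions and the annotation release are not given in the sources used here. Of the values, 9.77% were not whole (tolerance 1e-06), and all were rounded. Columns were matched to mice by treatment and number, the control columns being taken as vehicle. A stranded mRNA kit was used, but whether counting used strand is not stated.

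Genes were filtered with filterByExpr (minimum count 10, minimum total count 15), normalized by TMM and tested with the quasi-likelihood functions of edgeR 4.0.16 in R 4.3.3, with the batch number as a block, since the methods of the study adjust for replicates. Benjamini-Hochberg adjustment ran over 17069 genes, and calls required FDR < 0.1 and |log2FC| > 0.3. The labels call the number a batch. Across genes, the deviations of paired mice from their group means correlated at 0.0140, -0.0656 and 0.0734 (Pearson). Alternatives used DESeq2 1.42.0, limma 3.58.1, other filters and normalizations, no block, or fewer libraries. The fits were tested on simulated counts with the same variability for every gene and no batch effect or outlying library. That setting differs from these libraries, so it does not bear on how reliable the calls here are. Members, lists and alternatives were chosen with earlier results of these data known. Named genes are the members, the genes with the lowest and highest value and, in the IGF lists, up to 5 with the lowest unadjusted p, and the 3 genes most like a member (5 for *Igf2*). Others were chosen after their values were seen. Gene positions and exon lengths came from GENCODE M21 on GRCm38 and promoters from RefSeq. At this depth a count of 0 allows up to 0.109 to 0.135 CPM (3 counts, counting error only). For 1 gene alone and without the block, permuting 3 against 3 mice exactly gives no two-sided p below 0.1.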

Additional observations from a re-analysis of the deposited data

How the results depend on the processing

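*Igf2* and *Igfbp2* were lower in SP under each of the 17 alternatives, with log2 fold changes of -0.71 to -0.66 and -0.86 to -0.74 when all libraries were used, and of -0.98 to -0.45 and -1.27 to -0.52 when libraries were left out. Their calls were less stable. Of the 10 members, 2 were called with no filter on low counts and 1 by DESeq2 with the block, and 0 to 2 when libraries were left out. Over all genes 5 were called, 2 without the replicate block, 384 with no filter, 0 with at least 10 counts in every library, 36 by DESeq2 with the block, 132 by DESeq2 without it, 2 by limma-voom, 0 at an FDR under 0.05 and 1 to 357 when libraries were left out. The cause was not tested. Leaving out SP 3 in the fit without the block gave 357 genes and called *Igf2* and *Igfbp2*, and leaving out batch number 3 called both with 36 genes in all. Leaving out batch number 2 called 13 genes with *Igf2* (FDR 0.0612), and batch number 1 called 9 with no member. Without libraries in turn the log2 fold change ranged from -0.173 to 0.0965 for *Igf1r*, -0.21 to 0.0454 for *Igf2r*, -0.0362 to 0.16 for *Igfbp4* and -0.158 to 0.102 for *Igfbp5*. *Igf1r* was also positive without batch number 3 (0.0186) and, in fits without the block, without SP 1 (0.0552), SP 3 (0.0436) or vehicle 1 (0.0424), *Igf2r* without SP 1 (0.0309) and *Igfbp5* without SP 3 (0.0966). The replicate block changed no call among the members in edgeR, and in DESeq2 that of *Igf2*. Ranked by the longest transcript in place of merged exons, 6 of 10 members kept their place in the order of levels. Each member had at least 97 counts in each library.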
